A study of Arabidopsis thaliana with 18 samples.

Results

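Seedlings of the tfl1-1 mutant were compared with wild-type Columbia seedlings (WT) at the cooler of the temperatures used, 16 °C. The comparison was chosen by the titles of the arrays and took in 6 of the 18 arrays of the series, 3 of tfl1-1 (replicates A, B and C) and 3 of WT. Each array held biotin-labelled total RNA of whole seedlings aged 10 days, hybridised to an Affymetrix Arabidopsis array. All plants had been raised on MS agar after stratification and kept under continuous white light, so neither group had a day length. The labels describe the replicates as biological, with RNA prepared separately for each. They give tfl1-1 as a mutant and do not name the accession in which it was kept. The other arrays, used for the spread between replicates and for the same genotypes at 23 °C, held tfl1-1 and WT at 23 °C and the mutant elf3-7 at both temperatures.

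TFL1 (TERMINAL FLOWER 1) belongs to the small family of proteins that also includes the flowering signal FT. These proteins act in opposite directions through a shared partner, the bZIP factor FD: FT promotes flowering, while TFL1 delays it and keeps the shoot tip indeterminate. Low temperature induces COR and dehydrin genes that protect leaf cells against freezing, and cool growth conditions also favour the synthesis of anthocyanins, the red pigments made from flavonoids. The study addressed how TFL1 and the clock protein ELF3 take part in the response to ambient temperature. No probe set named here is TFL1, so the genotype could not be checked against the mutated gene. Leaf markers were bright on every array, with RCA, the activase of Rubisco, at 13.45 to 13.64 in WT and 13.44 to 13.69 in tfl1-1 on the log2 scale. None of the 7 floral organ, 5 seed and 4 shoot meristem markers looked for is named here.

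The arrays of each genotype were not equally alike. WT array A correlated more closely with tfl1-1 arrays A (0.991 over all probe sets) and B (0.993) than with WT arrays B (0.987) and C (0.984). Arrays of replicate C differed from A and B in their controls. The mean of 24 Bacillus control probe sets was 5.72 in WT C and 4.97 in tfl1-1 C, against 3.14 to 3.21 in A and B of these groups. For the actin and GAPDH controls, 3′ probe sets exceeded 5′ ones by 2.09 (WT) and 1.78 (tfl1-1) in C, against 1.22 to 1.63 in A and B. Some of the results that move with WT array A are given below with and without it.

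No probe set passed the test at 16 °C. Expression values are RMA values on the log2 scale, and each difference is tfl1-1 minus WT, with its standard error (SE) from a limma fit and 3 arrays per group. Of 22746 probe sets, 0 (0%) had an adjusted p under 0.05 with limma and Benjamini-Hochberg adjustment, and the lowest adjusted p was 0.0759, for SAT32. Without adjustment, 1717 probe sets (7.55%) had a p under 0.05, 761 of them higher in tfl1-1 and 956 lower. With each of the 6 arrays left out in turn the number called stayed 0, and the number with an unadjusted p under 0.05 ran from 978 (without WT B) to 2199 (without WT A), with 1074 without tfl1-1 C. Weighting the arrays by their quality gave 336 calls, and 4 other settings called 1 probe set each, SAT32. The median difference over all probe sets was -0.0226, 45.0% of probe sets lay above 0, and the 5th and 95th percentiles were -0.38 and 0.43. In whole seedlings, fewer cells of a type and less RNA per cell cannot be told apart.

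For most probe sets the arrays set a close limit on the size of a difference. The 95% confidence interval lay wholly inside -1 to 1, which excludes a difference of 2-fold or more in either direction, for 20121 of 22746 probe sets (88.5%). A difference of 1.5-fold or more was excluded for 61.1% and one of 4-fold or more for 99.2%. With a one-sided test against each 2-fold bound and Benjamini-Hochberg adjustment, 91.4% of probe sets were within both bounds. The median interval reached 0.35 to each side of the estimate, or 1.27-fold. The limit depended on brightness: 2-fold was excluded for 83.9% of the 15949 probe sets whose 16 °C mean lay above the 95th percentile of the Bacillus controls (3.85), and for 99.1% of the 6797 at or below it. RMA values compress differences near background, so the limits of dim probe sets hold for the signal rather than for the transcript. For 2625 probe sets 2-fold was not excluded, and for 175 of them 4-fold was not excluded either. SAT32 alone had an interval lying wholly beyond 2-fold. The intervals hold for each probe set alone and are not adjusted for the number of probe sets. SAT32 did not pass the adjusted test against 0 (limma adjusted p = 0.0759).

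**Figure D1:**
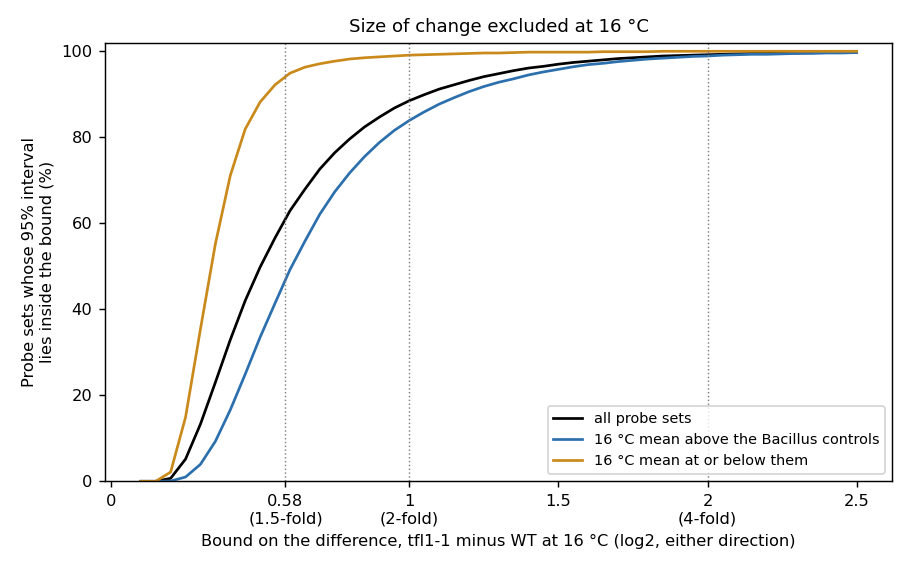
The x axis gives a bound on the difference tfl1-1 minus WT at 16 °C (log2, either direction) and the y axis the percentage of probe sets whose 95% confidence interval lies inside it. The black line stands for all probe sets and reaches 61.1% at 1.5-fold, 88.5% at 2-fold and 99.2% at 4-fold, with dim probe sets (orange) above bright ones (blue) at each of these.

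SAT32 (AT1G27760), named for a role in salt tolerance, had the strongest evidence of a difference. Its values were 7.38, 7.37 and 7.59 in WT replicates A, B and C, and 5.38, 4.98 and 5.74 in tfl1-1. The groups did not overlap, and every tfl1-1 array lay more than 1 log2 unit below every WT array. The difference was -2.08 ± 0.29 (SE, 4.23-fold lower, 95% interval -2.70 to -1.46, limma adjusted p = 0.0759). The adjusted p was under 0.05 in 5 of 16 alternative fits and ran from 0.000978 to 0.273 over them, while the difference stayed between -2.27 and -1.89 with any 1 array left out. In elf3-7 at 16 °C SAT32 was at 7.52 ± 0.24 (SD, n = 3), beside 7.45 ± 0.12 in WT and 5.37 ± 0.38 in tfl1-1.

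Of all probe sets, 2543 (11.2%) had tfl1-1 arrays entirely below WT and 1810 (7.96%) entirely above. Among those lower that name 1 gene, the next largest difference after SAT32 was in ICL (AT3G21720), the isocitrate lyase of the glyoxylate cycle, which turns stored lipid into sugar in germinating seedlings. ICL read 7.40, 7.39 and 6.38 in WT and 4.76, 5.78 and 5.17 in tfl1-1, a difference of -1.82 ± 0.62 (limma adjusted p = 0.528). WT C stood about 1 unit below the other WT arrays and still above all tfl1-1 arrays. The locus AT5G26270 was at 8.24, 7.16 and 7.55 in WT and 6.04, 6.52 and 6.26 in tfl1-1 (-1.38 ± 0.24, limma adjusted p = 0.124). Without WT array A its difference was -1.08. In elf3-7 at 16 °C this locus also lay below WT (-1.56 ± 0.24, limma adjusted p = 0.012). AT1G62500 (-1.26), AT2G07722 (-1.14), the dim M17 (-1.05), AT4G01730 (-1.0), AT1G43590 (-1.0), AT1G73620 (-0.98) and AT5G17160 (-0.97) complete the 10 largest. Of these, AT1G43590 was also below WT in elf3-7 at 16 °C (-1.34 ± 0.21, limma adjusted p = 0.014).

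In the other direction the largest differences without overlap were in the loci AT4G39675 (1.74 ± 0.73), AT1G22890 (1.72 ± 0.81) and AT1G67865 (1.61 ± 0.53), with wide errors. AT1G70810 differed less but with little scatter. Its WT arrays read 6.72, 6.61 and 6.42 and its tfl1-1 arrays 7.67, 7.71 and 7.83, which gives 1.15 ± 0.19 (2.22-fold, limma adjusted p = 0.104). COR15B (1.41) and COR15A (1.32), described with the cold genes, were among the 10, as were AT1G05340 (1.28), the beta-glucosidase BGLU33 (1.18), AT1G67860 (1.14) and AT2G39400 (1.14). Outside the rule by which genes were named, and chosen after their values were seen, AT3G05170 (0.95 ± 0.15), AT2G15000 (-0.87 ± 0.14) and AT2G29260 (-0.69 ± 0.11) each had a limma adjusted p of 0.104. AT3G05170 was above WT in elf3-7 at 16 °C too (0.85 ± 0.15, limma adjusted p = 0.0287). There AT2G15000 (0.2) and AT2G29260 (0.25) lay on the other side of WT than in tfl1-1. YUC4 (AT5G11320), an enzyme of auxin synthesis chosen in the same way, read 4.04, 4.13 and 4.06 in WT against 3.68, 3.48 and 3.59 in tfl1-1 (-0.49 ± 0.09, limma adjusted p = 0.124). Its tfl1-1 values lie below the 95th percentile of the Bacillus controls, so the size of this difference is uncertain.

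Of the 37 cold-response loci looked for, 8 are measured by probe sets named here, and all 8 lay above WT in tfl1-1 at 16 °C, with none called. Their median difference was 0.76, against -0.0226 over all probe sets. Taken letter by letter, although the letters do not consistently pair the arrays at 16 °C, it was 0.63, 0.90 and 0.58 in A, B and C. In 6 of the 8 tfl1-1 lay entirely above WT, against 7.96% of all probe sets. An unadjusted p under 0.05 was found in 3, against 7.55% of all probe sets in either direction. The list was chosen with earlier results of these data known, and its members were read on the same arrays. These counts are therefore a description and not separate support. The mean log2 level of the list was 7.40 to 7.65 on the WT arrays and 8.23 to 8.32 on the tfl1-1 arrays. The median lay between 0.68 and 0.81 with any 1 array left out, and was 0.78 without WT array A.

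The differences were largest in the COR15 pair, whose proteins protect chloroplast membranes during freezing. COR15B (AT2G42530) read 6.33, 7.21 and 8.01 in WT and 8.63, 8.50 and 8.64 in tfl1-1. The tfl1-1 arrays were close together, while WT spread over more than 1 log2 unit with array A lowest. The difference was 1.41 ± 0.46 (2.65-fold, limma adjusted p = 0.518), or 0.98 without WT A. COR15A (AT2G42540) read 4.64, 5.47 and 5.91 in WT and 7.04, 6.42 and 6.54 in tfl1-1, with no overlap and WT A again lowest. Its difference was 1.32 ± 0.38 (2.5-fold, limma adjusted p = 0.498), or 0.97 without WT A.

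COR27 (AT5G42900), a cold-regulated gene that also feeds into the clock, was steadier in WT. It read 6.96, 7.13 and 6.97 there and 7.80, 8.23 and 7.78 in tfl1-1 (0.92 ± 0.53, limma adjusted p = 0.719). AT4G33980, a locus of the same list, read 5.74, 5.58 and 5.61 in WT and 6.16, 6.98 and 6.42 in tfl1-1 (0.88 ± 0.39, limma adjusted p = 0.647). In neither gene did the groups overlap. The large SE of COR27 comes from the fit over all 18 arrays: at 23 °C its SD was 1.27 in WT and 1.14 in tfl1-1, against 0.10 and 0.26 at 16 °C.

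The dehydrins, hydrophilic proteins that shield membranes and enzymes from water loss, showed smaller differences. LTI30 (AT3G50970) read 9.66, 9.56 and 9.60 in WT and 10.50, 10.10 and 10.14 in tfl1-1 (0.64 ± 0.35, limma adjusted p = 0.709). COR47 (AT1G20440) read 10.52, 10.04 and 10.20 against 10.85, 10.61 and 10.66 (0.45 ± 0.35, limma adjusted p = 0.792). Both were higher on every tfl1-1 array than on any WT array. The groups overlapped in TIL (AT5G58070), a temperature-induced lipocalin, at 0.30 ± 0.22, and in STZ (AT1G27730), a zinc finger factor of abiotic stress, at 0.07 ± 0.97. For TIL a difference of 2-fold was excluded (interval -0.16 to 0.77), whereas for the other 7 it was not. The interval that reached furthest from 0 was that of COR15B, to 2.39.

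**Figure D2:**
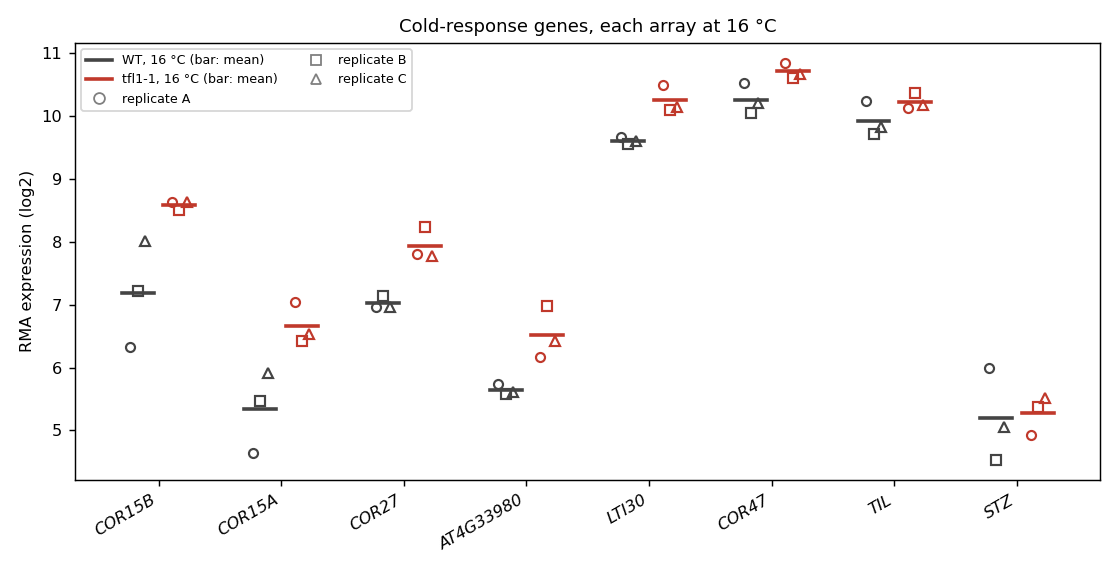
Each gene of the cold-response list is shown with its RMA expression (log2, y axis) on the 3 WT arrays (grey) and the 3 tfl1-1 arrays (red) at 16 °C; symbols mark replicates A, B and C and bars the group means. The groups do not overlap in 6 of the 8 genes, and WT replicate A is the lowest WT array in COR15B and COR15A.

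Of 37 flavonoid and anthocyanin loci, 9 are measured, and 8 of these lay below WT in tfl1-1, with none called. The median difference was -0.44, against -0.0226 over all probe sets. It was -0.08 in replicate A, -0.79 in B and -0.44 in C. In 5 of the 9 tfl1-1 lay entirely below WT, against 11.2% of all probe sets. An unadjusted p under 0.05 was found in 2, against 7.55% of all probe sets in either direction. This list too was chosen with earlier results known and its members share the same arrays, so the counts only describe it. Across fits with 1 array left out the median lay between -0.55 and -0.35.

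The groups were apart in 5 members. DFR (AT5G42800), the reductase that commits dihydroflavonols to anthocyanins, read 7.55, 7.02 and 7.14 in WT and 6.76, 5.56 and 6.47 in tfl1-1. No value overlapped, but tfl1-1 B stood almost 1 unit below its group, and the difference of -0.97 ± 0.69 had a limma adjusted p of 0.771. AT5MAT (AT3G29590), which adds malonyl groups to anthocyanins, was tighter, at 5.27, 5.68 and 5.48 in WT and 4.84, 4.41 and 4.83 in tfl1-1. Its difference of -0.78 ± 0.20 (1.72-fold lower) had a limma adjusted p of 0.433. UF3GT (AT5G54060), a glycosyltransferase of anthocyanins, read 7.31, 7.13 and 7.12 in WT and 6.59, 6.12 and 6.68 in tfl1-1 (-0.72 ± 0.35, limma adjusted p = 0.665). The loci AT4G14090 (-0.76 ± 0.27) and AT1G06000 (-0.44 ± 0.50) were the other members without overlap.

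In the other 4 members the groups overlapped. UGT78D1, a flavonol rhamnosyltransferase, was at -0.13 ± 0.36, the chalcone isomerase-like CHIL at -0.08 ± 0.39 and UGT78D2, a flavonoid glucosyltransferase, at -0.06 ± 0.23. BAN, the anthocyanidin reductase of the seed coat, was dim on all arrays, at 0.09 ± 0.10. In these 4 genes the interval excluded a 2-fold difference, while that of DFR reached -2.44. The bound that holds for all 9 members is therefore 2.44, in either direction.

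**Figure D3:**
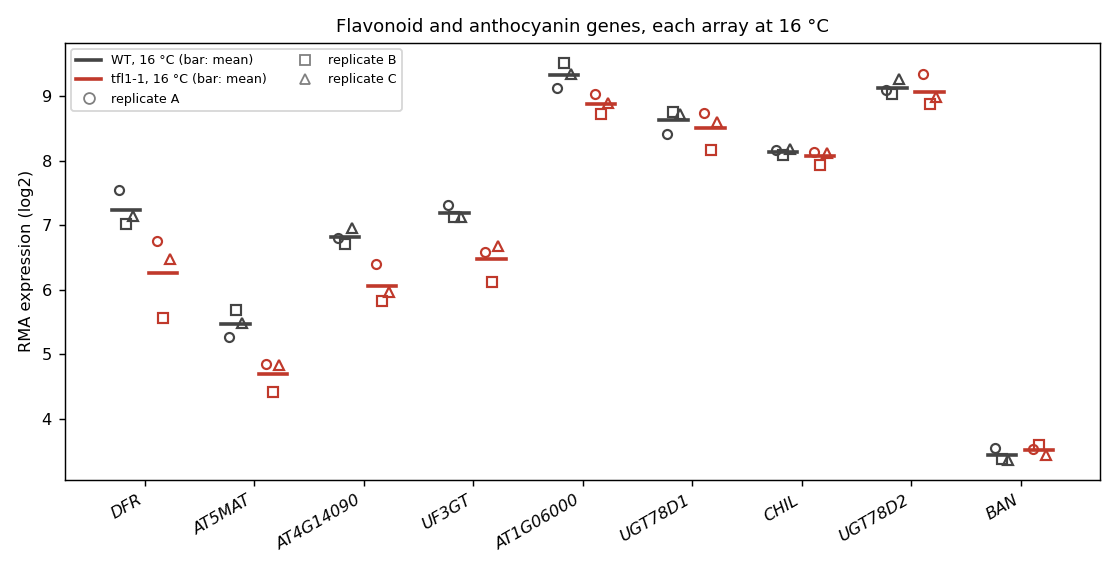
Each gene of the flavonoid and anthocyanin list is shown with its RMA expression (log2, y axis) on the 3 WT arrays (grey) and the 3 tfl1-1 arrays (red) at 16 °C; symbols mark replicates A, B and C and bars the group means. The groups do not overlap in DFR, AT5MAT, AT4G14090, UF3GT and AT1G06000, and the 4 genes to the right differ by 0.13 or less.

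Among regulators of flowering, FD and ATC are the measured genes closest to TFL1 in function or family, and neither was called. FD (AT4G35900), the partner of both FT and TFL1, read 3.41, 3.39 and 3.46 in WT and 3.35, 3.60 and 3.34 in tfl1-1, a difference of 0.01 ± 0.10. These values are at the level of the Bacillus controls, so FD was not measured above background in whole seedlings. ATC (AT2G27550), the nearest relative of TFL1 on the array with a name here, read 6.70, 6.56 and 6.68 in WT and 6.94, 6.30 and 6.63 in tfl1-1 (-0.03 ± 0.49). Its groups overlapped and its interval ran from -1.07 to 1.01.

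The 7 measured genes that promote flowering, of 32 looked for, all excluded a 2-fold difference, with intervals reaching at most 0.77, though 4 of them were dim. GI, a clock-linked activator of the photoperiod pathway, read 7.51, 7.65 and 7.73 in WT and 7.65, 8.27 and 7.58 in tfl1-1 (0.20 ± 0.21). LD was at 0.22 ± 0.25 and FY at -0.38 ± 0.18, both of the autonomous pathway, and of these the groups were apart only in FY, which was at 6.07, 5.95 and 6.14 in WT and 5.53, 5.69 and 5.82 in tfl1-1 (limma adjusted p = 0.656). The MADS factors AGL24 (0.01), AGL19 (-0.05) and AGL42 (0.08) were dim. Of the repressors, the AP2-like factors SMZ (0.14 ± 0.33) and SNZ (0.40 ± 0.27) were measured beside ATC. Over the wider MADS box family, all 42 members excluded a 2-fold difference with a median of -0.05, and 35 of them were dim.

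The ATG8 genes encode ubiquitin-like proteins that are anchored in the membrane of autophagosomes. All 9 measured lay above WT in tfl1-1, within a narrow range from 0.35 to 0.56 and with a median of 0.44, and none was called. In 5 of them tfl1-1 lay entirely above WT, against 7.96% of all probe sets. The ATG8 list was likewise chosen with earlier results known and read on the same arrays, so its counts only describe it. APG8H (AT3G15580) read 9.40, 9.16 and 9.47 in WT and 9.70, 9.77 and 10.01 in tfl1-1 (0.49 ± 0.15, limma adjusted p = 0.511). ATG8F read 10.01, 9.64 and 10.03 against 10.27, 10.32 and 10.59 (0.50 ± 0.28, limma adjusted p = 0.709). ATG8E (0.55 ± 0.45) was more scattered, and its groups overlapped. All 9 stayed above 0 with any 1 array left out.

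Lists linked to hormones, defence and stress gave small or divided differences. The defensins PDF1.2b (1.61 ± 0.70) and PDF1.2 (1.02 ± 0.67), which respond to jasmonate and ethylene, were the largest of 6 jasmonate and defensin genes, of which 3 lay above 0 and 3 below. PDF1.2b read 6.23, 5.31 and 4.68 in WT and 7.47, 6.18 and 7.40 in tfl1-1, so tfl1-1 B lay below WT A and the groups overlapped. Probe sets of these near-identical defensins can detect each other's transcripts. Of 3 salicylic acid defence genes measured, 2 lay above 0. RING1, a ubiquitin ligase of cell death in defence, was at 0.60 ± 0.23 (limma adjusted p = 0.586) without overlap. SAG101, a partner of the immune regulator EDS1, was at 0.29 ± 0.13, and GLR2.7 at -0.02. Of the 4 gibberellin genes all lay above 0, the receptors GID1A (0.47 ± 0.35), GID1C (0.26 ± 0.21) and GID1B (0.16 ± 0.30) and the F-box protein SLY1 (0.21 ± 0.10), with no call and a median of 0.23, or 0.14 without WT C. The 7 WRKY factors also lay above 0, but with a median of only 0.11 and with a 2-fold difference excluded in each.

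Genes of dehydration and senescence lay on both sides of WT. HIS1-3, a linker histone induced by drought, read 5.88, 5.37 and 5.57 in WT and 6.22, 6.64 and 6.38 in tfl1-1 (0.81 ± 0.49, limma adjusted p = 0.730). The late embryogenesis protein gene LEA18 read 7.13, 6.23 and 6.78 against 6.05, 6.01 and 5.94 (-0.72 ± 0.45, limma adjusted p = 0.741). Neither overlapped, and the other members were SAT32, LEA4-5 (-0.20 ± 0.25) and the sugar transporter gene SAG29 (0.48 ± 0.26). In carbon metabolism FDH, the mitochondrial formate dehydrogenase, read 10.24, 9.24 and 9.25 in WT and 10.56, 10.64 and 10.44 in tfl1-1. Its difference of 0.97 ± 0.45 (limma adjusted p = 0.656) was 1.3 without WT A. The starch genes DPE1 (0.13 ± 0.18), APL3 (0.03 ± 0.20) and SBE2.2 (0.00 ± 0.18) were within 2-fold of WT by their intervals. Heat shock and chaperone genes had a median of -0.12 over 7 members, with Cpn60beta3, a chloroplast chaperonin subunit, at -0.58 ± 0.33.

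All 3 mitosis genes lay below WT, with a median of -0.53. They were KINESIN-12B (-0.71 ± 0.33), a motor of the phragmoplast, and the Aurora kinases AUR1 (-0.53 ± 0.40) and AUR2 (-0.47 ± 0.29). KINESIN-12B read 5.56, 6.38 and 6.30 in WT and 5.62, 5.16 and 5.34 in tfl1-1, where WT A overlaps with tfl1-1. AUR1 read 7.40, 7.80 and 7.78 in WT and 7.18, 6.99 and 7.21 in tfl1-1, with no overlap, and AUR2 overlapped. None was called, and none excluded a 2-fold difference.

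The large families were spread around 0. The median was 0.01 over 51 UDP-glycosyltransferases, 0.06 over 23 cytochromes P450, -0.02 over 22 beta-glucosidases and -0.05 over 19 expansins. A 2-fold difference was excluded in 42, 21, 17 and 10 of them. Tau glutathione transferases, detoxification enzymes, had a median of 0.26 over 11 members, 8 above 0, and it was 0.42 without WT array A and 0.10 without WT array B. Apart from BGLU33, the beta-glucosidase furthest from WT was BGLU19, at 5.65, 4.91 and 5.20 in WT and 4.45, 4.38 and 4.15 in tfl1-1 (-0.93 ± 0.39, limma adjusted p = 0.634).

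Transcripts of the organelle genomes were mostly lower in tfl1-1 by small amounts. Of 16 mitochondrial genes 14 lay below WT, with a median of -0.38, and of 69 plastid genes 55 lay below, with a median of -0.26, and none was called. The subunit gene cox1 of cytochrome oxidase read 6.45, 6.43 and 6.33 in WT and 5.47, 5.94 and 5.34 in tfl1-1 (-0.82 ± 0.24, limma adjusted p = 0.499). The complex I subunit gene nad4 read 8.02, 8.44 and 8.73 against 7.19, 7.68 and 7.72 (-0.87 ± 0.49, limma adjusted p = 0.713). Neither pair of groups overlapped. Entirely below WT were 6 of the 16 mitochondrial and 9 of the 69 plastid genes, against 11.2% of all probe sets. In the plastid genome the polymerase subunit gene rpoB was lowest (-0.68 ± 0.53) and psaA, of photosystem I, highest (0.76 ± 0.57, or 0.37 without WT A). By letter the plastid median was -0.03 in A, -0.22 in B and -0.41 in C. The part of array quality in these differences was not tested.

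**Figure D4:**
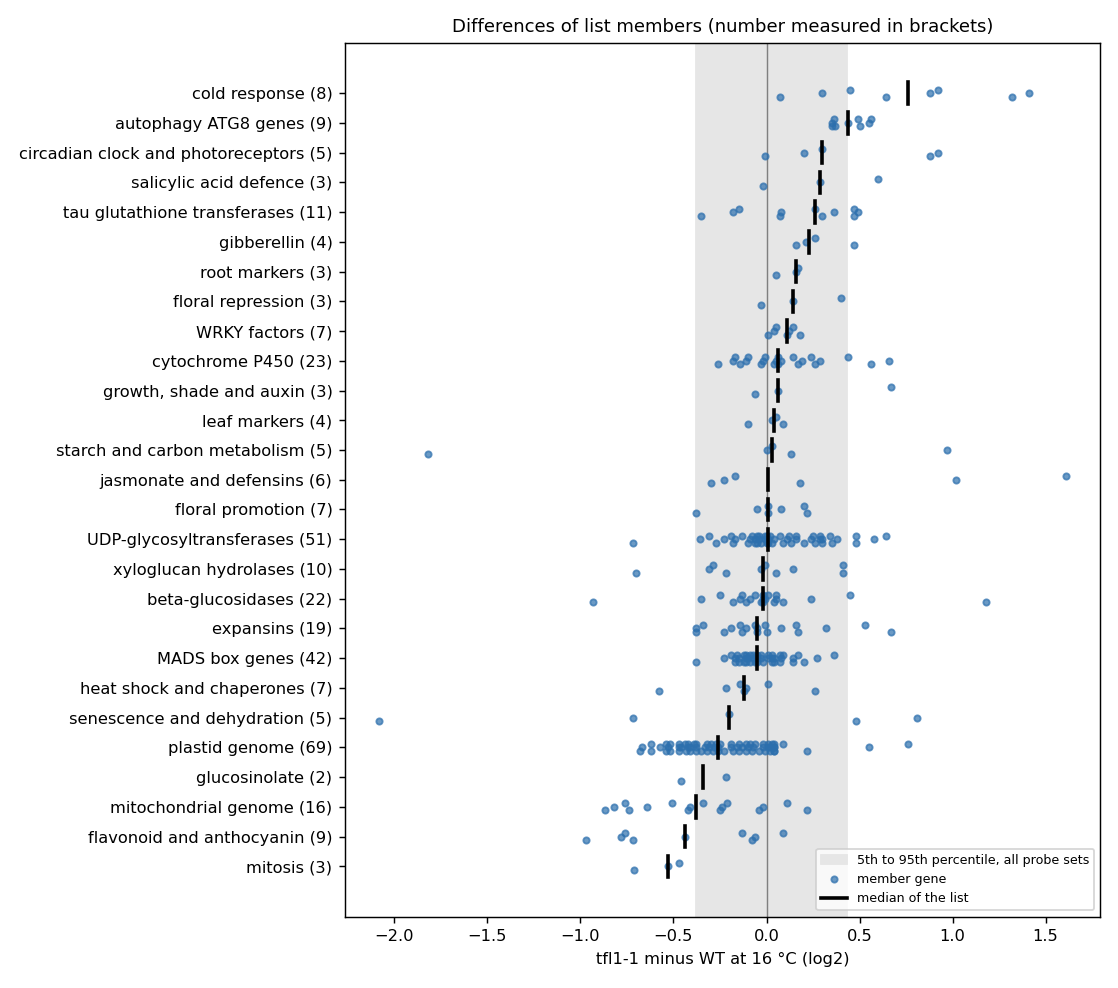
Points are the differences tfl1-1 minus WT at 16 °C (log2, x axis) of the measured genes of each list, ordered by the median of the list (black line), and the grey band spans the 5th to 95th percentile of all probe sets (-0.38 to 0.43), as single values and not as a measure for medians. The medians run from -0.53 (mitosis, 3 genes) to 0.76 (cold response, 8 genes), and the single genes furthest out are SAT32 (-2.08), ICL (-1.82) and PDF1.2b (1.61).

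Differences of 2-fold or more were found in 76 probe sets, 66 higher in tfl1-1 and 10 lower. WT array A was the highest WT array in 54 of the 66, against 8096 of all 22746 probe sets. Without WT array A there were 211 higher and 41 lower, and 60 of the 66 remained. Without tfl1-1 array A there were 98 higher and 18 lower. The groups did not overlap in 43 of the 66 and in 9 of the 10, against 4353 of all 22746 probe sets. A large difference of means on the same arrays makes overlap less likely, so these counts are not separate support. Loci chosen after their values were seen show the pattern in WT A: AT1G52070 read 6.97, 3.51 and 3.63 in WT and 6.93, 7.30 and 5.88 in tfl1-1 (2.0 ± 1.05, limma adjusted p = 0.689). AT4G26010 read 8.16, 4.87 and 4.62 against 7.45, 7.04 and 6.29. In both, WT A was within or above the range of tfl1-1 while WT B and C were lower. Without WT A the difference was 3.13 for AT1G52070 and 2.19 for AT4G26010, against 2.0 and 1.05 with it.

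Of the root markers, 3 of 10 are measured, and the expansin gene of root hairs EXPA7 showed the same array apart, at 5.78, 3.77 and 3.91 in WT and 5.05, 4.65 and 4.26 in tfl1-1. EXPA18 was at 0.16 ± 0.56 and PYK10, an abundant root beta-glucosidase, at 0.05 ± 0.24. The mean log2 level of the 3 root markers was 6.85 to 8.03 on the WT arrays and 7.10 to 7.62 on the tfl1-1 arrays. That of the 4 leaf markers was 12.02 to 12.26 and 12.05 to 12.23. The part of root content in the differences was not tested.

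The same genotypes at 23 °C are separate arrays. There, 8 probe sets (0.0352%) passed at an adjusted p under 0.05 with limma, 5 higher and 3 lower. In a fit blocked by replicate letter 29 passed, given because same-letter arrays at 23 °C were alike for A and C, though less so for B. The 8 became 0 without tfl1-1 B, 745 without tfl1-1 C, 14 without WT A, 3 without WT B and 4 without WT C of the 23 °C arrays. SAT32 was among them, at -2.47 ± 0.29 (limma adjusted p = 0.00979), as were AT1G43590 (-1.41 at 23 °C and -1.0 at 16 °C), AT1G73480 (1.41 and 0.77) and AT4G28080 (-0.61 and -0.14). Of all probe sets, 63.6% differed in the same direction at both temperatures. Among the 1717 with an unadjusted p under 0.05 at 16 °C this was 77.8%, and 250 had an unadjusted p under 0.05 at 23 °C in the same direction, 14.6% of the 1717 and 13.0% of the 1924 found at 23 °C. Over all 22746 probe sets the matching share was 6.32%. Both p-values of a probe set rest on the same estimate of spread, from the fit of all arrays. A small spread lowers both, so 14.6% against 6.32% is not independent replication. How much of the excess comes from the shared spread was not tested. At 23 °C the groups did not overlap in 3.52% of probe sets with tfl1-1 higher and 6.65% with tfl1-1 lower. Across all probe sets, which are not independent, the differences at the 2 temperatures had a Pearson correlation of 0.391.

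The lists differed in how far the 16 °C pattern was found again. The ATG8 genes had a median of 0.63 at 23 °C with 9 of 9 above 0, and the flavonoid and anthocyanin genes one of -0.50 with 1 of 9 above 0. The cold-response median was 0.35 with 7 of 8 above 0. COR15B was at -0.09 and COR15A at 0.23 there, against 1.41 and 1.32 at 16 °C. The mitochondrial median was 0.46 at 23 °C, with 13 of 16 above 0, against -0.38 at 16 °C. The plastid genes lay on the other side of WT too, with 56 of 69 above 0 at 23 °C and a median of 0.10, against 14 of 69 and -0.26 at 16 °C. ICL was at -0.30.

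Whether the genotype difference differed between temperatures was tested with limma, where 0 probe sets (0%) were called, 821 had an unadjusted p under 0.05 and the lowest adjusted p was 1.0. The count was 2 with the replicate letter blocked, 1 with replicate C blocked against A and B, 23 with array weights and 13 without tfl1-1 C of the 23 °C arrays. For COR15B the change in the difference from 16 to 23 °C was -1.50 ± 0.65. For cox1 it was 1.34 ± 0.34, for BGLU33 -1.96 ± 0.75, for ICL 1.52 ± 0.88 and for SAT32 -0.38 ± 0.41, all with a limma adjusted p of 1.0.

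**Figure D5:**
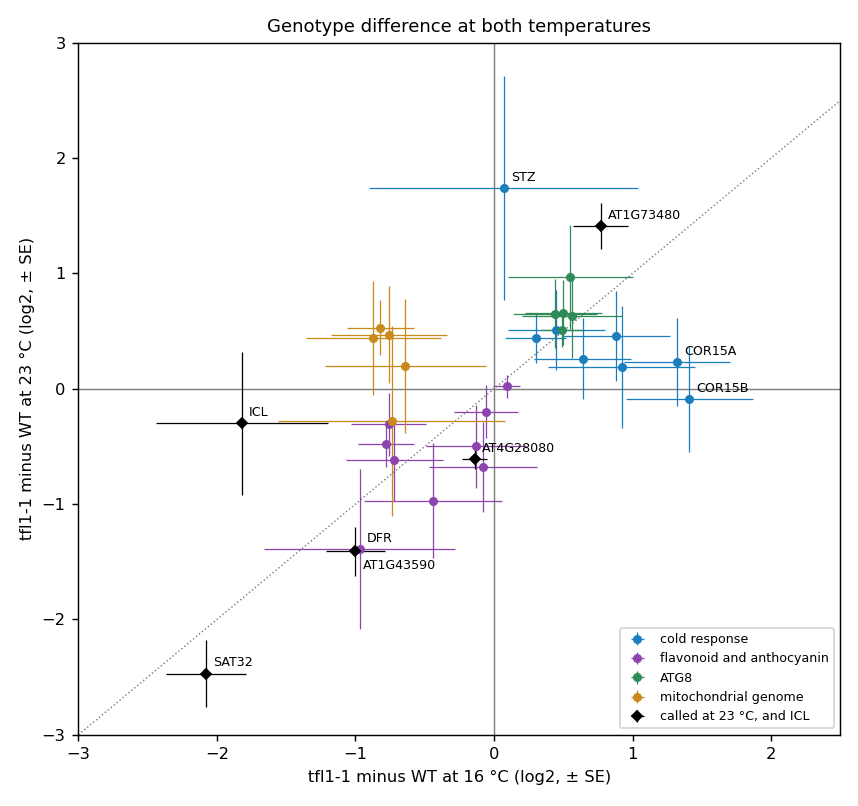
Each point is a named gene, with its difference tfl1-1 minus WT (log2, bars ± SE) at 16 °C on the x axis and at 23 °C on the y axis; colours mark the list, with the 5 largest members shown for the ATG8 and mitochondrial lists. SAT32 lies at -2.08 and -2.47, near the dotted line of equal differences, COR15A and COR15B lie to the right with values near 0 at 23 °C, and 4 of the 5 mitochondrial genes are below 0 at 16 °C and above 0 at 23 °C.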

How the data were processed

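The table deposited by the authors holds log2 values, 1 per probe set and array. The submitters' processing notes name RMA, with version and annotation not given in the sources used here. RMA corrects background and normalizes arrays to each other, and nothing further was applied. Values ran from 2.33 to 14.08, and the medians of the 6 arrays from 5.56 to 5.62. The 64 control probe sets were left out, which left 22746. Names came from the platform annotation, updated through the RefSeq gene table of TAIR10.1: 13513 probe sets name 1 gene (1580 with a symbol), 503 name several and 8730 are unnamed here. The number of arrays sets the precision, as they have no read depth.

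Group means of all 18 arrays in 6 groups were fitted with limma 3.58.1 (R 4.3.3) and empirical Bayes moderation. Tests were two-sided, and p-values were adjusted by Benjamini-Hochberg over all probe sets. Intervals are 95% intervals of that fit, not adjusted for the number of probe sets. The scripts were tested on simulated data. Tables and figures used Python 3.11.15, pandas 2.3.3, numpy 2.4.6 and matplotlib 3.10.9.

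The comparison and the 30 gene lists (27 with measured members; 71 of 318 listed loci measured) were chosen with earlier results of these data known. The brightest probe set stood for a gene. A list was described by its median and counts and was not tested. A gene was called dim where its 16 °C mean was at or below 3.85, the 95th percentile of the Bacillus controls in replicates A and B. Genes were named by rule: the 10 highest and 10 lowest differences without overlap that name 1 gene, up to 5 members per list, all members of the cold, flavonoid and anthocyanin and flowering lists, and genes called at 23 °C.

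The replicate letters did not consistently pair the arrays at 16 °C. Deviations of same-letter arrays correlated there at -0.0908, 0.0895 and 0.547 for A, B and C. The highest value between different letters was 0.377, for WT A and tfl1-1 B. At 23 °C the same-letter values were 0.622, 0.187 and 0.596, and the highest between different letters was 0.242. Letters A and C thus exceeded all values between different letters at 23 °C, and only C did at 16 °C. The count with the letter as a block stands beside the 23 °C result. Alternatives were blocks for the letter and for replicate C against A and B, A and B only, fewer arrays in the fit, equal array medians, quantile normalization, a filter on dim probe sets, array weights, a trended robust fit and leaving out each array. Promoter motifs were not analysed here.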

Additional observations from a re-analysis of the deposited data

How the results depend on the processing

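The 16 °C count of calls was 0 in the fits of the 6 or 12 arrays, with replicate C against A and B as a block, with the replicate block, in A and B only and with each array left out. It was 1 (SAT32) with equal array medians, quantile normalization, dim probe sets left out and a trended robust fit, and 336 with array weights; the cause was not tested. The 23 °C count, 8, was 0 in the fit of 12 arrays, 32 with replicate C as a block, 29 with the replicate block, 193 in A and B only and 1593 with array weights. It ran from 0 (without tfl1-1 B) to 745 (without tfl1-1 C) with 1 array left out, and was 3 without WT B, 4 without WT C and 14 without WT A. The count for the difference between temperatures was 1 with replicate C as a block, 2 with the replicate block, 23 with array weights and 0 to 13 with 1 array left out, the 13 without tfl1-1 C at 23 °C. The replicate block left the 16 °C result at 0 calls and is not used there, since the letters did not consistently pair the arrays.

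The percentage of probe sets excluding a 2-fold difference ran from 82.3 (without WT A) to 94.4 (6 arrays only). The cold-response median stayed between 0.68 and 0.81 and the flavonoid and anthocyanin median between -0.58 and -0.35 in all fits run. In counts added after seeing the data, over the same fits, at least 7 of 8 cold-response genes stayed above 0, at least 6 of 9 flavonoid and anthocyanin genes below 0, and 9 of 9 ATG8 genes above 0. Of 2245 alternative values of 141 named genes, 2177 kept their direction and their side of the threshold. Another 14 newly passed the threshold (10 of them with array weights), and 54 changed sign. The 54 came from 22 genes, whose differences in the main fit ran from -0.31 (XTH32) to 0.20 (GI). With 1 array left out these ran over XTH32 -0.61 to 0.07, UGT78D1 -0.26 to 0.04, LHCB4.3 -0.28 to 0.16, UGT78D2 -0.20 to 0.04, YUC2 -0.18 to 0.04, AGL19 -0.15 to 0.06, ATC -0.19 to 0.13, GLR2.7 -0.09 to 0.07, TIC -0.05 to 0.02, SBE2.2 -0.12 to 0.15, FD -0.08 to 0.06, AGL24 -0.06 to 0.05, RCA -0.02 to 0.10, APL3 -0.05 to 0.14, STZ -0.26 to 0.47, WRKY6 -0.05 to 0.41, SMZ -0.03 to 0.40, EXPA18 -0.12 to 0.62, EXPA7 -0.19 to 0.81, PDF2.1 -0.24 to 0.48, GI -0.02 to 0.32. In A and B only, the sign changed in UGT78D2 (0.05), TIC (0.01), AGL24 (-0.03), IAA29 (-0.02), STZ (-0.12) and SMZ (0.00). With equal array medians it changed in SBE2.2 (-0.02), FD (-0.01) and AGL24 (-0.01), with quantile normalization in AGL19 (0.00), GLR2.7 (0.00), SBE2.2 (-0.02) and RCA (-0.06), and with array weights in SBE2.2 (-0.08) and AGL24 (-0.03); the cause was not tested.

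With 3 arrays per group, a difference needed a median size of 1.21 (2.32-fold) to be called alone, so many smaller differences could not be detected. This median was 1.45 for bright and 0.85 for dim probe sets. The size needed is smaller where other probe sets pass too. Dim probe sets, 6797 of 22746, were limited by background. Only 71 of 318 listed loci were measured by probe sets named here.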
